A study of Caenorhabditis elegans with 8 samples.

Results

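Lysozymes, saposin-like proteins, antimicrobial peptides and other pathogen-response genes of Caenorhabditis elegans were compared between worms labelled day 1 and day 5 of adult life. The genes were chosen by name: symbols beginning lys, ilys, spp, cnc, abf, irg or fip followed only by a number, and the neuropeptide-like genes nlp-24 to nlp-34. Of 90 annotated genes whose symbols fit, 75 were among the 17076 genes of the table. They comprised 9 lys, 4 ilys, 26 spp, 5 abf, 8 cnc, 11 nlp, 4 fip and 8 irg genes. The other 15 (abf-3, cnc-1, cnc-5, cnc-6, fip-3, fip-4, fip-7, ilys-1, ilys-6, lys-9, spp-9, spp-20, spp-26, spp-27 and spp-29) were not analysed here. Every gene of the table had a read at both ages, so the counts below hold no gene that was silent at either age. Of the 75, 31 lie on chromosome V, 16 on X, 14 on IV, 7 on I, 4 on III and 3 on II of build WBcel235.

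Both groups were entire hermaphrodite worms of N2, the wild-type strain, grown from synchronized first-stage larvae at 20 °C on the bacterium OP50, the standard laboratory food. One group was taken after 60 h of culture, labelled adult day 1, and the other after 180 h, labelled adult day 5. These culture times lie 5 days apart and the labelled ages 4 days, a disagreement that the labels do not resolve. Each group had 4 libraries of poly(A) mRNA, 1 from each of 4 labelled batches. The design text prints the day 5 group's code for the day 1 control too, so groups were read from the treatment labels. Separate cultures are not stated for the libraries, so the spread that p-values rest on may be technical. Libraries are numbered by their batch.

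Nematodes have no circulating immune cells, and their defence rests on molecules secreted by barrier tissues. Intestinal cells release lysozymes, which cut the peptidoglycan of bacterial walls, and saposin-like caenopores, which open holes in bacterial membranes, and both act on the bacteria that the animal eats. The epidermis releases short antimicrobial peptides of the nlp and cnc groups when a fungus attacks or the cuticle is wounded. Many of these genes answer to a conserved p38 MAP kinase cascade, to insulin signalling through DAF-16, and to the TGF-beta ligand DBL-1.

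The libraries held 19345868 to 22305681 reads. The values are read counts divided by a size factor for each library, here called normalised read counts, and a value near 1 stands for about 1 read. They carry no length correction, so levels of different genes are compared per kilobase of exon. The day 1 library of batch 3 stood apart for these genes: it was the highest day 1 library for 52 of 74 members (70.3%), against 35.7% of all genes. It also had the lowest day 1 sums of the intestinal, pharyngeal muscle and moult markers. The day 1 libraries differed in stage markers as well, with summed yolk protein counts of 1804 and 4415 in batches 1 and 2 and of 122.2 and 111.5 in batches 3 and 4. Yolk transcripts summed to 589523 or more in each day 5 library. Moult gene sums were 68456, 59955, 16331 and 38377 in batches 1 to 4 at day 1 and 2992 to 7988 at day 5. At day 1, yolk and moult sums were thus both higher in batches 1 and 2 than in batches 3 and 4. These markers therefore do not order the day 1 libraries by stage. Germline and oocyte marker sums were 14971 to 20714 and then 126727 to 187147. The groups thus differed in stage markers as well as in labelled age. The part of stage in the differences below was not tested. The calls of single members that were lost when day 1 lacked libraries 1 and 2, or 3 and 4, are given with each gene.

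Lysozymes, saposins and antimicrobial peptides changed in both directions between the groups labelled day 1 and day 5 of adulthood. Of the 74 genes tested, 23 rose (31.1%) and 20 fell (27%), and 31 passed in neither direction. Across all 16739 genes tested, 28.8% rose and 26.8% fell, 55.6% in all, so the share of members that changed was near that of all genes. The groups did not overlap for 32 members (43.2%), of which 13 were higher and 19 lower, against 52.8% of all genes. Differences ran from a fall of nlp-24, a peptide precursor gene, to a rise of irg-6, an infection response gene, at -4.17 and 6.85 on the log2 scale. The median over members was -0.17, and the median over all genes was -0.06. The remaining gene, spp-30, had 2 reads at day 1 and 1 read at day 5 and was too low to test. Differences are day 5 minus day 1 on log2(value + 1), and adjusted p-values are from limma over all genes tested, called under 0.05. With a scaling that left out the top 1% of genes by mean, 18 members rose and 25 fell. With libraries 1 and 2 of day 1 left out, 15 rose and 28 fell, and with libraries 3 and 4 left out, 26 rose and 16 fell. Within batches 1 to 4, the median difference over members was -0.22, 0.34, -0.71 and -0.07. In whole animals, fewer cells of a type and less RNA in each cell cannot be told apart.

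**Figure D1:**
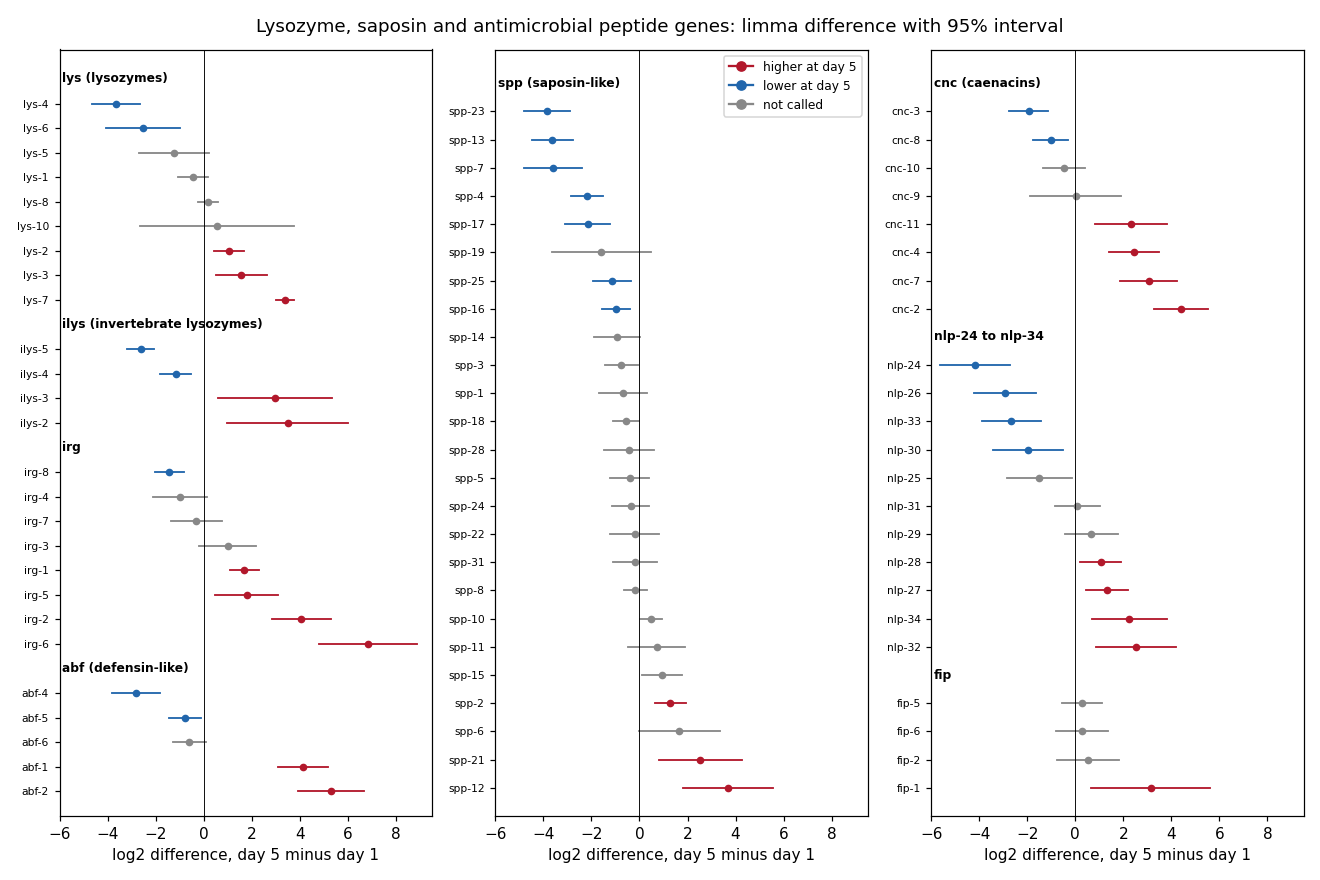
Log2 difference, day 5 minus day 1 (horizontal axis), of each of the 74 genes tested, grouped by symbol family, with its 95% interval from limma. Red marks the 23 genes that rose, blue the 20 that fell and grey the 31 that passed in neither direction, and most families hold both colours.

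The summed level of the 75 genes was 156646, 140637, 239594 and 158958 in batches 1 to 4 at day 1. At day 5 it was 168930, 145709, 157789 and 184350. These sums overlapped, and as a share of all reads they were 0.746% to 1.13% at day 1 and 0.724% to 0.830% at day 5. What made up the sum differed. Counts of the lysozyme gene lys-7 were 2.31% ± 0.715 of it at day 1 and 24.5% ± 3.98 at day 5 (SD, n = 4). Counts of the invertebrate-type lysozyme gene ilys-5 went the other way, from 7.93% ± 1.197 to 1.41% ± 0.529. Without lys-7, the sum was 170170 ± 44934 at day 1 and 124315 ± 17440 at day 5, and the groups still overlapped.

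**Figure D2:**
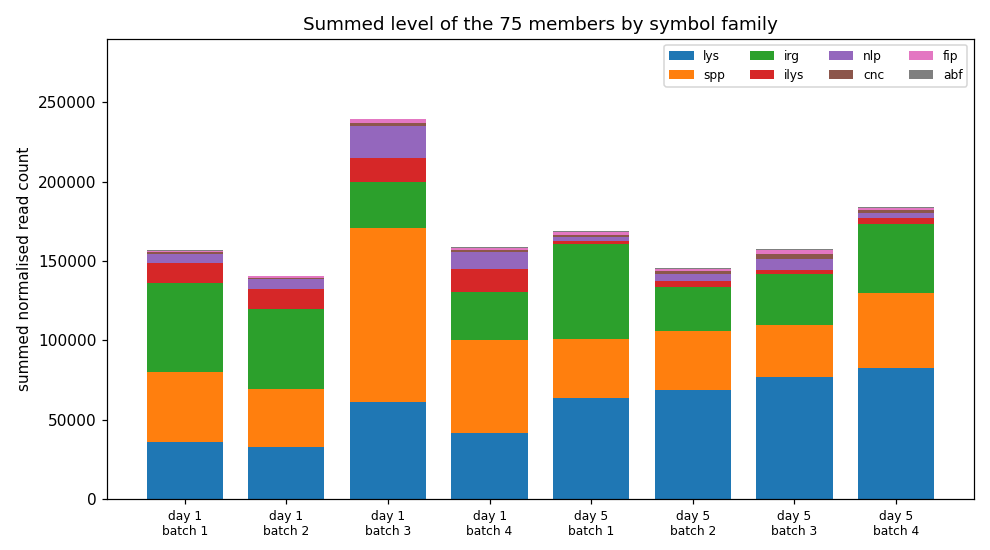
Summed normalised read count of the 75 genes (vertical axis) in each of the 8 libraries, stacked by symbol family. The day 1 library of batch 3 is the tallest at 239594, and the lys segment is larger in each day 5 library than in any at day 1.

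Per kilobase of exon, the saposin-like gene spp-5 had the highest mean over all libraries, with 45460 at day 1 and 31093 at day 5. It was followed by spp-14, with 33771 and 14830, and by lys-7, next in the order, with 4200 and 44213. Then came spp-17, lys-1, lys-8, spp-3 and lys-2, so the first 8 genes of the order were all lysozymes or saposin-like proteins. By the day 5 means alone, lys-7 was above spp-5.

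Among the lysozymes of the protist type, the 9 lys genes, 3 rose, 2 fell and 4 passed in neither direction. The share called, 55.6%, was that of all genes. The lowest p-value of all members was that of lys-7 (WBGene00003096, chromosome V, 3481432 to 3482600), an intestinal lysozyme and known DAF-16 target whose loss makes worms more susceptible to several pathogens. Normalised counts of lys-7 in batches 1 to 4 were 3786, 4296, 3199 and 3873 for day 1 and 34602, 37979, 46244 and 40694 for day 5. All 4 day 5 libraries were above all 4 day 1 libraries, and the replicates of each age lay close together. The gene rose 10.5-fold in the ratio of means, with a log2 difference of 3.40 (SE 0.17, adjusted p = 8.85e-07).

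The genes lys-1, lys-2 and lys-3 are neighbours on chromosome V, between 10277904 and 10283544, and lys-1 is a well-known intestinal lysozyme induced by bacterial infection. The gene lys-2 had, in the same batch order, 6125, 3671, 8139 and 3619 on day 1 and 10779, 9983, 8449 and 13607 on day 5. The groups did not overlap, though the highest day 1 library, of batch 3, was close to the lowest at day 5. Its log2 difference was 1.06 (SE 0.29, adjusted p = 0.0106). For lys-1, the day 1 libraries had counts of 14470, 12387, 28227 and 12074, and the day 5 libraries had 9848, 11060, 10992 and 14895. The groups overlapped, the day 1 library of batch 3 was the highest of the 8, and lys-1 was not called, at -0.44 (SE 0.29, adjusted p = 0.218). Counts of lys-3, batch 1 first, were 30.5, 10.7, 44.0 and 13.6 on day 1 against 73.1, 63.3, 77.9 and 49.8 on day 5. Each day 5 library was above each day 1 library, and lys-3 rose by 1.58 (SE 0.48, adjusted p = 0.0175). Neither lys-2 nor lys-3 passed a test against a 1.5-fold change, at adjusted p = 0.145 and 0.0809.

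Another run of neighbours, lys-4, lys-5 and lys-6 on chromosome IV between 11621429 and 11627947, was lower at day 5 in 2 of its 3 members. The 4 day 1 counts of lys-4 were 3412, 4918, 10977 and 12724, and the day 5 counts were 299, 795, 591 and 659. Every day 5 library was below every day 1 library, and lys-4 fell by 3.65 on the log2 scale (SE 0.45, adjusted p = 0.000117). At day 1, lys-6 was at 19.1, 27.2, 99.1 and 83.4, and at day 5 at 2.25, 9.32, 6.20 and 16.9, by batch. These groups did not overlap either, and lys-6 fell by 2.53 (SE 0.69, adjusted p = 0.0108). When day 1 lacked libraries 3 and 4 it was at -1.55 and not called (adjusted p = 0.0887). Library by library, lys-5 had 44.8, 49.6, 291 and 83.4 on day 1 and 28.1, 16.8, 54.9 and 62.7 on day 5. The groups overlapped, and lys-5 was not called (-1.24, SE 0.65, adjusted p = 0.131).

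Of the other lysozymes, lys-8, an intestinal gene that also depends on DBL-1 signalling, was not called, with means of 8623 ± 1107 at day 1 and 9925 ± 1825 at day 5 (SD, n = 4) and a log2 difference of 0.19 (adjusted p = 0.412). Its exons share 38 bases with another gene. The level of lys-10 varied widely between libraries of one age. Normalised counts of lys-10 in batches 1 to 4 were 0.953, 6.81, 295 and 26.2 for day 1 and 4.50, 88.5, 54.9 and 20.9 for day 5. The day 1 values spanned more than the difference between ages (0.57, SE 1.43, adjusted p = 0.764).

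Invertebrate-type lysozymes split evenly, with 2 of 4 lower and 2 of 4 higher at day 5, beside 26.8% and 28.8% of all genes. The gene ilys-5 had, in the same batch order, 12444, 12367, 14931 and 13902 on day 1 and 1649, 3002, 1548 and 2988 on day 5. All day 5 libraries were below each day 1 library, and ilys-5 (WBGene00017691, chromosome X, 6533490 to 6536840) fell by 2.61 on the log2 scale (SE 0.25, adjusted p = 2.85e-05). For ilys-4, the day 1 libraries had counts of 193, 215, 368 and 422, and the day 5 libraries had 119, 125, 132 and 127. The day 5 values lay close together below the day 1 values, and ilys-4 fell by 1.16 (SE 0.29, adjusted p = 0.00714), a call that a test against a 1.5-fold change did not give (adjusted p = 0.0928).

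The neighbours ilys-3 and ilys-2 on chromosome IV, between 2464456 and 2468879, both rose. The product of ilys-3 acts in the pharynx and intestine, where it helps to break up ingested bacteria. Counts of ilys-3, batch 1 first, were 11.4, 4.86, 30.8 and 9.69 on day 1 against 12.4, 190.0, 644 and 55.8 on day 5. The lowest day 5 library, of batch 1, lay among the day 1 values, and the other 3 lay above them. The 4 day 1 counts of ilys-2 were 0, 0, 15.4 and 1.94, and the day 5 counts were 3.38, 55.0, 84.1 and 36.8. Here too the batch 1 library was the low one at day 5, below the day 1 library of batch 3. Log2 differences were 2.97 (SE 1.06, adjusted p = 0.0369) for ilys-3 and 3.50 (SE 1.12, adjusted p = 0.0231) for ilys-2. Both calls changed when 1 library was left out. For ilys-3 the call was lost without library 1, 2 or 4 of day 1 (adjusted p = 0.0564, 0.0862 and 0.0756) or library 2, 3 or 4 of day 5 (0.0941, 0.092 and 0.0518). For ilys-2 it was lost without library 1 or 2 of day 1 (0.0518 and 0.0593) or library 2, 3 or 4 of day 5 (0.0628, 0.0682 and 0.0567). When day 1 lacked libraries 1 and 2, ilys-2 was at 2.10 (0.132) and ilys-3 at 2.41 (0.115), neither called. With the scalings that left out the top 1% of genes or fixed the sum of each library, ilys-3 was not called either (0.0637 and 0.0532).

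**Figure D3:**
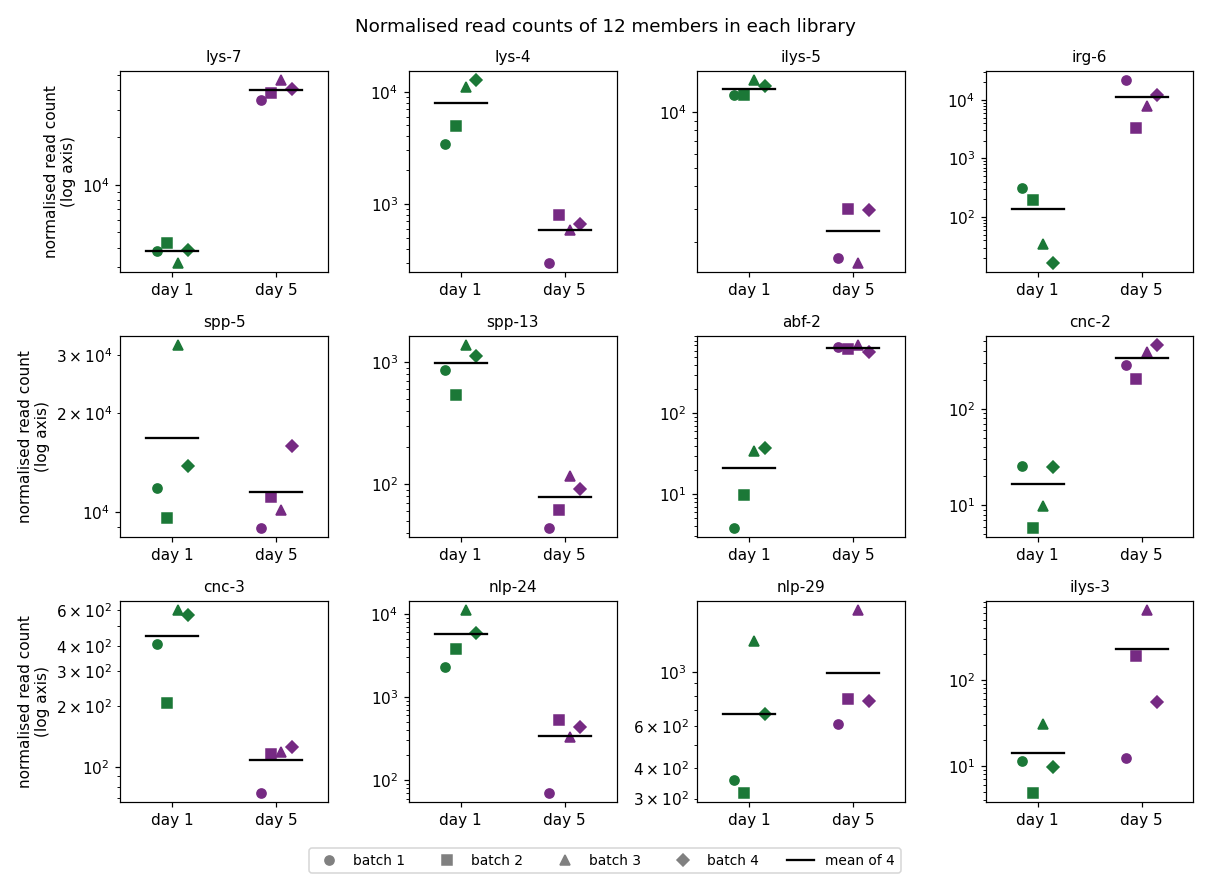
Normalised read count (log axis) of 12 members in each library, with day 1 on the left and day 5 on the right of each panel, a marker shape for each batch and a bar at the mean of 4. For lys-7, irg-6, abf-2 and cnc-2 each day 5 point is above each day 1 point, for lys-4, ilys-5, spp-13, cnc-3 and nlp-24 each is below, and for spp-5, nlp-29 and ilys-3 the ages overlap. Zero values would not be drawn on the log axis, and none of these 12 genes has one.

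Of 25 saposin-like genes tested, the spp group, 7 fell, 3 rose and 15 passed in neither direction, beside 26.8% of all genes that fell and 28.8% that rose. Proteins of this group share a fold that binds membranes, and several of them, caenopores, kill bacteria by making pores. The median over the 25 was -0.43 on the log2 scale, against -0.06 over all genes, and it depended on the day 1 libraries. In 21 of the 25 the highest day 1 library was that of batch 3. Without that library, 5 spp genes rose and 7 fell and the median was -0.16. When day 1 lacked libraries 1 and 2, 3 rose and 13 fell with a median of -0.91, and when it lacked libraries 3 and 4, 4 rose and 6 fell with a median of 0.02. Without library 3 of day 1, over all 74 members there were 27 rises and 19 falls.

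At day 1, spp-5 was at 11770, 9595, 32150 and 13767, and at day 5 at 8928, 11114, 10090 and 15885, by batch. The ages overlapped, and the day 1 library of batch 3 was far above the other 7. The gene, spp-5, encodes an intestinal caenopore that kills Escherichia coli, the species of the food strain OP50. It was not called, with a log2 difference of -0.41 (SE 0.36, adjusted p = 0.365), and the 95% interval of -1.22 to 0.40 covers both directions. Another caenopore gene with known action on bacteria, spp-1, was likewise not called (-0.68, SE 0.45, adjusted p = 0.23). Nor was spp-14, second in level per kilobase (-0.95, SE 0.43, adjusted p = 0.0842).

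Among the 3 spp genes that fell furthest was spp-23, on chromosome I. Library by library, spp-23 had 1296, 1139, 3374 and 2479 on day 1 and 76.5, 234, 115.1 and 135 on day 5. Its groups did not overlap, and it fell by 3.85 (SE 0.42, adjusted p = 5.92e-05). The neighbour of spp-23 within the same few kilobases, spp-17, fell less. Normalised counts of spp-17 in batches 1 to 4 were 6336, 4436, 18344 and 8024 for day 1 and 1267, 2089, 1429 and 2778 for day 5. Its groups did not overlap either, and it fell by 2.15 (SE 0.42, adjusted p = 0.00169). The gene spp-13 had, in the same batch order, 863, 541, 1379 and 1117 on day 1 and 43.9, 61.5, 117 and 91.6 on day 5. All 4 day 5 libraries were below the day 1 libraries, and spp-13 (WBGene00004998, chromosome X, 8417419 to 8418524) fell by 3.63 (SE 0.38, adjusted p = 4.34e-05). For spp-7, the day 1 libraries had counts of 54.3, 76.8, 229 and 173, and the day 5 libraries had 4.50, 14.0, 8.86 and 8.96. This gene, spp-7 (WBGene00004992, chromosome IV, 5412827 to 5415796), fell by 3.59 (SE 0.54, adjusted p = 0.000355), also with no overlap. The other 3 that fell were spp-4, spp-16 and spp-25, by 2.19, 0.97 and 1.14 on the log2 scale (adjusted p = 0.000216, 0.00926 and 0.0189). Of the 596 exonic bases of spp-16, 170 are shared with another gene, so its reads are uncertain, and spp-25 lost its call without library 2 of day 5 (adjusted p = 0.0532). It was at -0.66 when day 1 lacked libraries 3 and 4 (0.0977) and not called under quantile normalisation either (0.0976).

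The 3 spp genes that rose were spp-12, spp-2 and spp-21. Counts of spp-12, batch 1 first, were 0, 0, 7.71 and 9.69 on day 1 against 31.5, 35.4, 54.9 and 37.8 on day 5. With 2 day 1 libraries at 0, spp-12 was still higher in each day 5 library than in any at day 1, and its log2 difference was 3.69 (SE 0.84, adjusted p = 0.00402). Its product is a pore-forming protein reported in pharyngeal neurons, with a role in defence against Bacillus thuringiensis. The 4 day 1 counts of spp-2 were 685, 738, 1303 and 1358, and the day 5 counts were 2993, 1875, 1996 and 2851. Each day 5 value was above each at day 1, with a log2 difference of 1.29 (SE 0.28, adjusted p = 0.00329), and under quantile normalisation it was 0.70 and not called (adjusted p = 0.0578). The last of them, spp-21, had means of 1.47 ± 1.64 at day 1 and 15.7 ± 13.5 at day 5 (SD, n = 4), rose by 2.54 (SE 0.78, adjusted p = 0.0188) and lost its call without library 4 of day 1 (adjusted p = 0.0531) or library 3 of day 5 (0.0558), and when day 1 lacked libraries 3 and 4 (1.99, adjusted p = 0.0918).

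Most genes listed as intestinal markers fell in the same animals. The 2 not called included elt-2, the main intestinal GATA factor. The yolk protein genes vit-1 to vit-6, also expressed in the intestine, are outside this list and rose in 6 of 6, with a median of 10.88. Of the 12 listed markers, 10 fell and 0 rose by limma, by edgeR, by DESeq2 and at an unadjusted limma p under 0.05. The summed level of the 12 was 155350 to 249315 at day 1 and 68073 to 87975 at day 5. The intestinal markers had log2 differences of -2.65 to -0.24, with a median of -1.87. Differences of the lys genes ran from -3.65 to 3.40 (median 0.19) and those of the ilys genes from -2.61 to 3.50 (median 0.90). Those of the spp genes ran from -3.85 to 3.69 (median -0.43). Which of these genes are expressed mainly in the intestine was not scored. Pharyngeal muscle markers, 5 of 5, fell too, with sums of 5754 to 26037 and then 2342 to 3864, while pharyngeal gland markers had 1 rise and 1 fall among 5, with sums of 1709 to 2950 and 1327 to 2895. The part of these tissue shifts in the values of single members was not tested.

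Of 5 defensin-like abf genes, 2 rose, 2 fell and 1 passed in neither direction (80% called, against 55.6% of all genes). The neighbours abf-2 and abf-1 lie together on chromosome I, and ABF-2 is a secreted peptide of the pharynx that kills bacteria. At day 1, abf-2 was at 3.81, 9.73, 34.1 and 36.8, and at day 5 at 667, 631, 704 and 571, by batch. Each day 5 library was far above each day 1 library, and the 4 day 5 values were close together. The ratio of means was 30.4, with a log2 difference of 5.31 (SE 0.61, adjusted p = 7.59e-05). For abf-1, a single read was found in the 4 day 1 libraries together and 82 reads in the 4 day 5 libraries, with normalised counts of 14.2 to 26.1. This is a rate ratio of 80.4 with an exact 95% counting interval of 14.0 to 3215, and the gene was called higher (adjusted p = 6.66e-05).

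Library by library, abf-4 had 28.6, 18.5, 15.4 and 12.6 on day 1 and 2.25, 0.932, 1.77 and 1.99 on day 5. Every day 5 library was below every day 1 library, and abf-4 fell by 2.82 on the log2 scale (SE 0.45, adjusted p = 0.0005). The neighbours abf-5 and abf-6 on chromosome X had differences of -0.79 and -0.59 (adjusted p = 0.0469 and 0.131), the first just inside the threshold and the second outside it. With batch as a block, abf-5 was no longer called (adjusted p = 0.0599). Its call was also lost without library 1 or 4 of day 1 (0.116 and 0.117) or library 1, 2 or 3 of day 5 (0.0813, 0.0917 and 0.125), and when day 1 lacked libraries 1 and 2 or 3 and 4 (0.0834 and 0.0788). Under quantile normalisation abf-5 was at -0.39 (adjusted p = 0.333).

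Caenacins, the cnc genes, are glycine-rich peptides of the epidermis, and cnc-2 is the member best known to answer to fungal infection through DBL-1. Of 8 tested, 4 rose, 2 fell and 2, cnc-9 and cnc-10, passed in neither direction (75% called, against 55.6% of all genes). In the run cnc-11, cnc-4, cnc-3 and cnc-2, on chromosome V between 1442342 and 1450183, genes side by side moved in opposite directions. Normalised counts of cnc-2 in batches 1 to 4 were 25.7, 5.84, 9.91 and 25.2 for day 1 and 287, 205, 388 and 458 for day 5. Each day 5 library was above each day 1 library, and cnc-2 rose 20.1-fold in the ratio of means, at 4.41 on the log2 scale (SE 0.50, adjusted p = 7.09e-05). The gene cnc-3 had, in the same batch order, 408, 208, 602 and 569 on day 1 and 74.3, 116, 119 and 126 on day 5. The groups were apart again, in the other direction, and cnc-3 fell by 1.94 (SE 0.36, adjusted p = 0.00131). For cnc-4, the day 1 libraries had counts of 204, 83.7, 255 and 204, and the day 5 libraries had 778, 744, 2306 and 599. The day 5 library of batch 3 was the highest of all 8, the groups did not overlap, and cnc-4 rose by 2.45 (SE 0.47, adjusted p = 0.00158).

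The other 2 caenacins that rose had few reads. For cnc-7, 2 reads at day 1 and 41 at day 5 gave a rate ratio of 20.1, with an exact 95% counting interval of 5.22 to 172 (adjusted p = 0.000813). The second, cnc-11, had means of 0.970 ± 1.37 at day 1 and 8.63 ± 5.40 at day 5 (SD, n = 4) and a log2 difference of 2.31 (SE 0.68, adjusted p = 0.0151). When day 1 lacked libraries 1 and 2, cnc-11 was at 2.06 and not called (adjusted p = 0.0608), and 3 cnc genes rose and 3 fell. Counts of cnc-8, batch 1 first, were 256, 268, 394 and 293 on day 1 against 75.4, 184, 195 and 166 on day 5. The groups did not overlap, and cnc-8 fell by 1.03 (SE 0.33, adjusted p = 0.0237). Its call was lost without library 3 or library 4 of day 1 (adjusted p = 0.0511 and 0.0502) and without both (0.094).

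The 11 genes nlp-24 to nlp-34 encode precursors of short, glycine- and tyrosine-rich peptides, and nlp-29 is the standard reporter of the epidermal answer to wounding and to the fungus Drechmeria coniospora. Of these genes 4 rose, 4 fell and 3 passed in neither direction (72.7% called, against 55.6% of all genes). In each of the 11 the highest day 1 library was that of batch 3. With libraries 1 and 2 of day 1 left out, 0 rose by limma, at an unadjusted p under 0.05 too, and 5 fell. With edgeR on the recovered reads (TMM scaling) 1 rose and 4 fell. The 4 day 1 counts of nlp-24 were 2306, 3762, 11079 and 5839, and the day 5 counts were 69.8, 521, 329 and 432. Each day 5 library was far below each day 1 library, and nlp-24 (WBGene00003762, chromosome V, 11616376 to 11616828) fell by 4.17 (SE 0.66, adjusted p = 0.000474), the furthest fall among the members. At day 1, nlp-33 was at 1345, 857, 2892 and 1920, and at day 5 at 77.6, 394, 361 and 349.6, by batch. The groups did not overlap, the batch 1 library was the lowest at day 5, and nlp-33 fell by 2.67 (SE 0.55, adjusted p = 0.00234). Library by library, nlp-26 had 176, 251, 974 and 419 on day 1 and 23.6, 94.1, 37.2 and 62.7 on day 5. With no overlap, nlp-26 fell by 2.91 (SE 0.58, adjusted p = 0.00188), while its neighbour nlp-25 was not called (-1.50, adjusted p = 0.0566).

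The nlp-29 cluster, 6 genes on chromosome V between 3978825 and 3989770, split. Normalised counts of nlp-29 in batches 1 to 4 were 358, 316, 1354 and 672 for day 1 and 612, 775, 1810 and 763 for day 5. The ages overlapped, and nlp-29 itself was not called, at 0.67 (SE 0.49, adjusted p = 0.278). The gene nlp-30 had, in the same batch order, 255, 206, 994 and 533 on day 1 and 38.3, 102, 304 and 98.6 on day 5. This neighbour of nlp-29 fell by 1.96 (SE 0.65, adjusted p = 0.0274) although the day 5 library of batch 3 lay among the day 1 values. For nlp-34, the day 1 libraries had counts of 55.3, 45.7, 429 and 103.7, and the day 5 libraries had 291, 516, 1188 and 328. At one end of the cluster, nlp-34 rose by 2.24 (SE 0.70, adjusted p = 0.0204), with the day 1 library of batch 3 inside the day 5 range. Between and beside them, nlp-27 and nlp-28 rose by 1.32 and 1.06 (adjusted p = 0.0171 and 0.0373), and nlp-31 was near no change (0.08, adjusted p = 0.895). The fourth nlp gene to rise was nlp-32, which lies outside the cluster (2.53, SE 0.75, adjusted p = 0.0158). It had few reads, with counts of 0, 0, 6.60 and 0 on day 1 and 4.50, 10.2, 14.2 and 7.97 on day 5.

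Several of these calls changed when 1 library was left out. For nlp-30 the call was lost without library 3 or 4 of day 1 (adjusted p = 0.0642 and 0.0681) or library 1, 2 or 4 of day 5 (0.0723, 0.0567 and 0.0604). It was at -1.13 when day 1 lacked libraries 3 and 4 (0.170) and at -0.84 with library weights (0.202). For nlp-34 it was lost without library 2 of day 1 (0.0529) or library 3 of day 5 (0.0612). For nlp-28 it was lost without library 1, 2 or 4 of day 1 (0.0819, 0.0937 and 0.075), without library 1, 2 or 3 of day 5 (0.0553, 0.107 and 0.0685), and with batch as a block (0.0583). When day 1 lacked libraries 1 and 2, the 4 nlp genes that rose were not called: nlp-27 was at 0.78 (0.0989), nlp-28 at 0.57 (0.221), nlp-32 at 1.80 (0.0981) and nlp-34 at 1.22 (0.121). By edgeR with TMM scaling, nlp-28, nlp-32 and nlp-34 were not called (0.0615, 0.087 and 0.0578), and under quantile normalisation nlp-27 was not (0.124). By DESeq2, nlp-32 was not called either (adjusted p = 0.0989).

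Fungus-induced proteins, the fip genes, are further small secreted proteins raised by infection of the epidermis. Counts of fip-5, batch 1 first, were 389, 382, 975 and 633 on day 1 against 466, 559, 1151 and 660.3 on day 5. The ages overlapped, and fip-5, the most abundant of the 4 by count, was not called (0.28, SE 0.37, adjusted p = 0.557). The genes fip-2 and fip-6 were not called either (0.53 and 0.29, adjusted p = 0.468 and 0.639). The 4 day 1 counts of fip-1 were 1.91, 0, 4.40 and 0, and the day 5 counts were 12.4, 3.73, 186 and 6.97. The day 5 library of batch 3 was the high one, and 2 of the day 1 libraries had no read. The fitted difference of fip-1 was 3.14 (SE 1.11, adjusted p = 0.0354), 1.999 without that library (adjusted p = 0.0581). The call was also lost without library 2 or 4 of day 1 (0.0823 and 0.0872) or library 1 of day 5 (0.0596), and when day 1 lacked libraries 1 and 2 or 3 and 4 (0.0828 and 0.0562).

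Genes listed as epidermal markers, many of them cuticle collagens, changed strongly in these animals. Of 11, 7 fell and 2 rose, the latter being the adult cuticle collagen col-19 and the transcription factor lin-26. Their sums were 87354 to 113338 at day 1 and 7386 to 23499 at day 5. Moult genes, whose products remodel the cuticle in larvae, fell in 7 of 7, from sums of 16331 to 68456 to sums of 2992 to 7988. The epidermal peptide genes cnc-2 and cnc-4 rose, and nlp-24, nlp-33 and cnc-3 fell, beside these marker shifts, whose part in them was not tested. How far the listed markers follow stage and not the amount of epidermis was not tested either.

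Infection response genes, the irg group, are defined by induction during infection and not by a shared protein type. Of 8 tested, 4 rose, 1 fell and 3 passed in neither direction (62.5% called, against 55.6% of all genes). At day 1, irg-6 was at 307, 196, 35.2 and 16.5, and at day 5 at 21917, 3292, 7940 and 11878, by batch. Day 5 values spread over several-fold but lay above each day 1 value by a wide margin. This gene, irg-6 (WBGene00007864, chromosome IV, 12912722 to 12914969), had the largest rise of the 74, 6.85 on the log2 scale (SE 0.91, adjusted p = 0.000172). At day 1 its 2 libraries of batches 1 and 2 were several-fold above those of batches 3 and 4.

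Infection response genes irg-2 and irg-1 rose without overlap too. Library by library, irg-2 had 45.8, 10.7, 5.50 and 12.6 on day 1 and 239.7, 278, 310.0 and 182 on day 5. The log2 difference of irg-2 was 4.07 (SE 0.55, adjusted p = 0.000204). Normalised counts of irg-1 in batches 1 to 4 were 160.1, 116, 249.9 and 184 for day 1 and 531, 707, 515 and 487 for day 5. Each day 5 library was above each day 1 library, and irg-1, the reporter gene of the transcription factor ZIP-2 in Pseudomonas infection, rose by 1.69 (SE 0.27, adjusted p = 0.000487). The p38 target irg-5 rose by 1.80 (SE 0.59, adjusted p = 0.0251), but not without library 4 of day 1 (adjusted p = 0.0666) or library 2 or 3 of day 5 (0.0671 and 0.0649). When day 1 lacked libraries 3 and 4, irg-5 was at 0.72 (0.0900). It was also not called by edgeR with TMM scaling (0.0622), under quantile normalisation (0.1002), and with the scalings that left out the top 1% of genes (0.0599) or fixed the sum of each library (0.05003).

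The gene irg-8 had, in the same batch order, 17382, 9137, 12670 and 13090 on day 1 and 6062, 3998, 3341 and 6172 on day 5. All day 5 libraries were below each day 1 library, and irg-8 was the 1 gene of the group to fall, by 1.43 (SE 0.27, adjusted p = 0.00134). For irg-7, the day 1 libraries had counts of 32872, 35685, 8983 and 11869, and the day 5 libraries had 25043, 11368, 11133 and 17008. The gene with the most reads of the group, irg-7, was thus high in batches 1 and 2 and low in batches 3 and 4 at day 1. It was not called (-0.30, SE 0.48, adjusted p = 0.622). Also not called were irg-3 and irg-4, the second a p38 target of the intestine (1.00 and -0.98, adjusted p = 0.141 and 0.125).

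Genes of these families often lie side by side, and 35 members lay within 10 kb of another, in 12 runs. In 3 of the runs some genes rose and others fell: the cnc run, the nlp-29 cluster and the spp-3, spp-2, spp-6, spp-4 and spp-5 run on chromosome X between 7314969 and 7320354. In 3 runs all genes were called in 1 direction, spp-17 with spp-23, abf-2 with abf-1 and ilys-3 with ilys-2. The ratio of each of the 23 pairs of neighbours was compared between ages, a comparison added after the values were seen. In 12 of the 23 pairs the ratios of the 2 ages did not overlap, which gives the smallest p that an exact two-sided permutation test of 4 against 4 allows (0.0286, or 0.0548 adjusted over the 23). No pair passed 0.05 after adjustment. With that smallest p none could pass unless more pairs had reached it, so the test does not decide about single pairs. Among the 12, the pair spp-6 and spp-4 rests on few reads, as spp-6 had a mean of 3.97 over the libraries. Neighbouring pairs outside the members were not scored, so no share over all pairs stands beside the 12. For single genes, a different measure, the groups did not overlap in 52.8% of all genes tested.

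The furthest shift was between cnc-3 and cnc-2, 872 bases apart. Their log2 ratio was 4.78 ± 0.79 at day 1, cnc-3 being the higher, and -1.57 ± 0.52 at day 5 (SD, n = 4). Between cnc-4 and cnc-3 the log2 ratio went from -1.25 ± 0.20 to 3.13 ± 0.89. In the nlp-29 cluster, nlp-30 to nlp-29 went from -0.47 ± 0.12 to -3.10 ± 0.60, so a pair with nearly fixed proportions at day 1 had others at day 5. Among the lysozymes, lys-1 to lys-2 went from 1.63 ± 0.26 to 0.13 ± 0.21, and in the saposin run, spp-3 to spp-2 went from 1.998 ± 0.39 to -0.04 ± 0.52. Per kilobase of exon, lys-1 had 17507 at day 1 and 12199 at day 5, and lys-2 had 5788 at day 1 and 11498 at day 5. These are the same counts over fixed exon lengths and are no separate evidence of the shift.

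**Figure D4:**
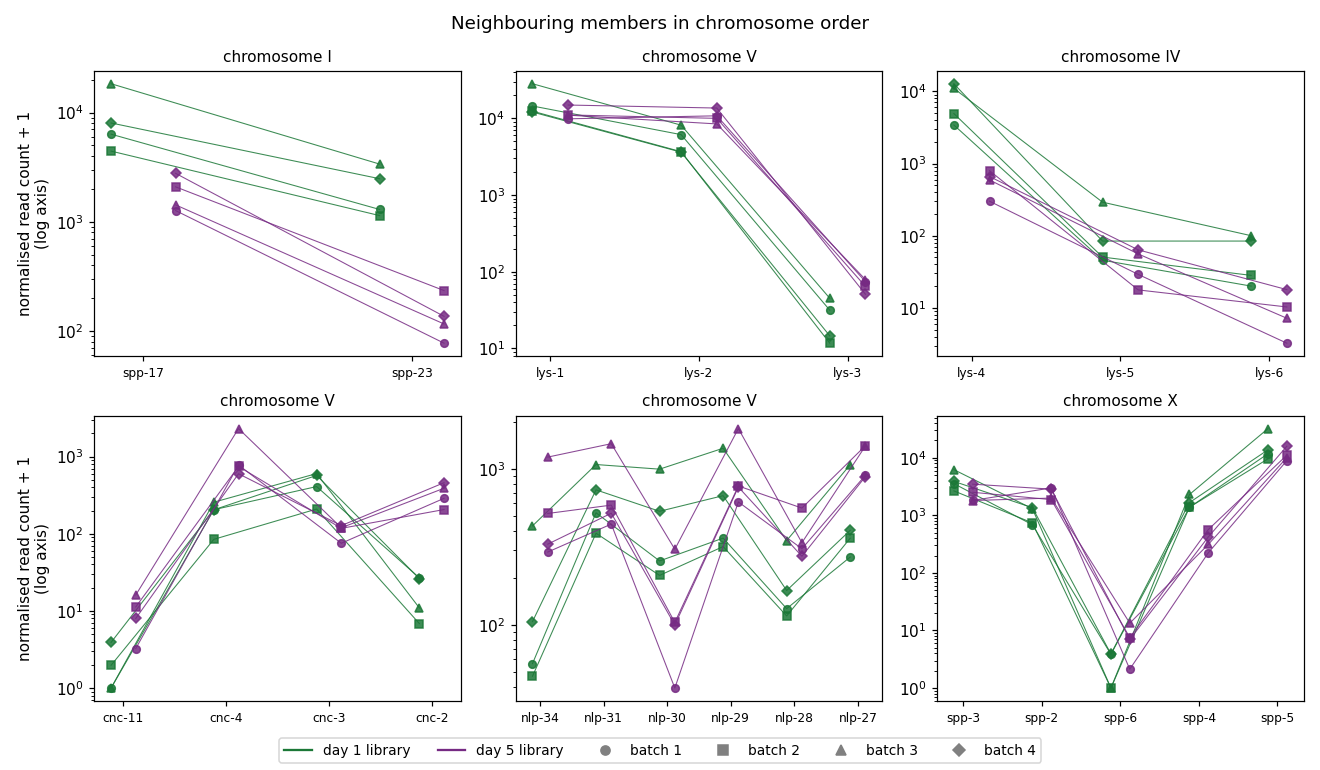
Normalised read count plus 1 (log axis) of neighbouring members in chromosome order, for 6 runs, with a line for each library, green for day 1 and purple for day 5. The lines of the 2 ages cross in the cnc run and in the nlp-29 cluster, and stay apart across lys-4, lys-5 and lys-6 except at lys-5, where some libraries meet.

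Genes that regulate this defence were counted from lists drawn up from general knowledge. Of 57 regulators, 10 rose and 10 fell (17.5% each, against 28.8% and 26.8% of all genes), with a median of -0.05. The list counts below stand beside the same shares of all genes. Of 21 genes of p38 and epidermal antifungal signalling, 4 rose and 4 fell. The Gα subunit gpa-12, which carries the epidermal signal to nlp-29, had means of 293 ± 12.2 at day 1 and 93.5 ± 17.1 at day 5 (SD, n = 4) and fell by 1.66 (SE 0.23, adjusted p = 0.00023). The stress transcription factor skn-1 had means of 2045 ± 1080 at day 1 and 5492 ± 1363 at day 5 (SD, n = 4) and rose by 1.60 (SE 0.43, adjusted p = 0.0095). Of 11 genes of DBL-1 signalling 5 fell and 0 rose by limma and by edgeR, 1 rose by DESeq2 and 1 at an unadjusted limma p under 0.05. With batch as a block, 4 fell and 1 rose. Among those that fell were the ligand gene dbl-1 (-1.03, adjusted p = 0.0092) and the Smad gene sma-2 (-1.60, adjusted p = 0.00156), and the median was -0.77. The DBL-1 target cnc-2 rose beside this.

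Of 14 intestinal transcription factors and receptors, 4 rose and 0 fell by limma, and 1 fell by edgeR with TMM scaling, by DESeq2 and at an unadjusted limma p under 0.05. In this list 2 rose and 2 fell under quantile normalisation and under the scaling without the top 1% of genes. The heat shock factor gene hsf-1 rose by 2.36 (SE 0.31, adjusted p = 0.000175) and the nuclear receptor gene nhr-49 by 1.19 (SE 0.33, adjusted p = 0.0108). Among the others of that list, daf-16, the insulin-pathway factor upstream of lys-7, had a difference of 1.04 (adjusted p = 0.0468), and elt-2, the main intestinal GATA factor, one of -0.37 (adjusted p = 0.138). These 2 were singled out after their values were seen. Of 11 genes of the intracellular pathogen response, a program set off by microsporidia and viruses, 2 rose and 1 fell, and with batch as a block 3 rose and 1 fell. Its reporter gene pals-5 was at 0.550 ± 1.10 at day 1 and 25.7 ± 19.9 at day 5 (SD, n = 4), with adjusted p = 0.000751, and eol-1 rose by 3.46 (SE 0.52, adjusted p = 0.000364). Among 12 other pathogen-induced effectors, 5 rose and 2 fell, and the thaumatin-like genes thn-1 and thn-2 rose by 4.09 and 3.40 (adjusted p = 0.000138 and 1.77e-05).

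The counts of regulators depended on scaling more than those of the members. With the scaling that left out the top 1% of genes, 6 regulators rose and 17 fell, and with quantile normalisation 5 rose and 17 fell.

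**Figure D5:**
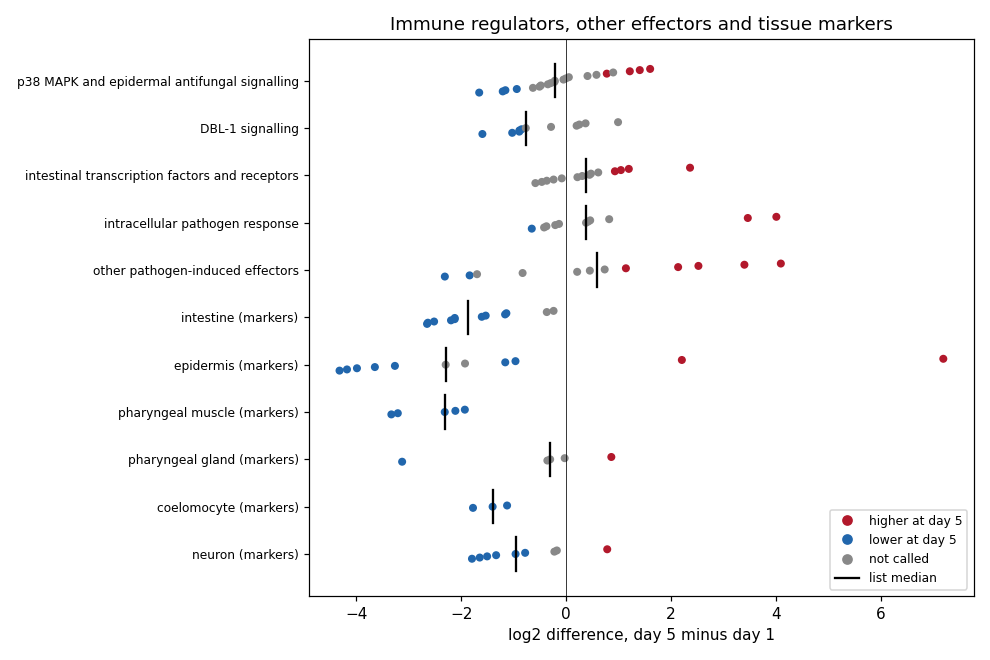
Log2 difference, day 5 minus day 1 (horizontal axis), of each gene of the regulator, effector and tissue marker lists, coloured by call, with a black bar at each list's median. The medians of the intestinal and epidermal markers lie at -1.87 and -2.30, and those of the regulator lists between -0.77 and 0.38.

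Markers of intestine, epidermis, pharynx, coelomocytes, neurons and germline were read in the libraries. Every gene of the table had a read at both ages, so their presence is no check of the whole-animal label. Coelomocyte markers fell in 3 of 3, with sums of 510 to 1490 and then 327 to 456. Of 9 neuron markers 6 fell and 1 rose, with sums of 8727 to 12475 and then 7792 to 10077. Germline and oocyte markers rose in 7 of 8, from sums of 14971 to 20714 to sums of 126727 to 187147, and yolk protein genes rose in 6 of 6.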

How the data were processed

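Poly(A) mRNA of whole hermaphrodites was sequenced in 8 libraries, and the submitters' processing notes name HISAT2, HTSeq and build WBcel235, without versions. Although its name says FPKM, the deposited table holds a signal of another kind. Each value is a read count over 1 size factor per library, and whole reads came back for 100% of values within 0.001 reads. The 16739 of 17076 genes whose mean value reached 1 were tested with limma 3.58.1 (with trend) in R 4.3.3 on log2(value + 1), with Benjamini-Hochberg adjustment over all of them and calls under 0.05. The plan had assumed FPKM, and the log-scale test was kept. Folds on that scale understate changes of low genes. Because a poly(A) kit with no stated strand marking was used, reads of overlapping genes (8 members share exonic bases) and of near-identical copies are uncertain.

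Names and coordinates, 1-based, came from annotation release 115 of WBcel235, which held 17072 of the IDs. Replicate numbers are the labelled batches, so they pair the libraries. Deviations of same-numbered libraries from their group means correlated at -0.22, 0.24, -0.09 and -0.02. The main fit has no batch term, and the block is an alternative. The other alternatives were edgeR 4.0.16 and DESeq2 1.42.0 on the recovered reads, other scalings, filters and pseudocounts, library weights, a test against 1.5-fold, and libraries left out.

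In each family, the members given in full are the 3 that rose most and the 3 that fell most without overlap between ages and with a mean of at least 10, plus the one with the highest mean and the members beside them on the chromosome. In the regulator and effector lists the 2 called genes with the largest absolute difference are named. Genes named from the marker lists, and daf-16 and elt-2, were chosen outside this rule. Members, lists and the naming rule were chosen with earlier results of these data known. The comparison of neighbouring genes, which used scipy 1.17.1, was added after the values were seen. Counting intervals are exact Poisson intervals and cover counting error only.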

Additional observations from a re-analysis of the deposited data

Results flagged for a closer look

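The gap of each group's highest or lowest library to the rest was checked with Dixon's ratio for the named members, in 58 groups of 4 libraries, and 4 stood out. Chance flags about 1 in 20 such groups. In 3 of them the day 5 library of batch 1 was the low one: nlp-33 had 77.6 there against 350 to 394 in the other 3, cnc-3 had 74.3 against 116 to 126, and cnc-8 had 75.4 against 166 to 195. These are epidermal peptide genes that were lower at day 5, and without that library they still fell. The fourth was abf-1, with 0.953 in the day 1 library of batch 1 and 0 in the other 3, which rests on a single read.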

How the results depend on the processing

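Results were recomputed under 23 alternatives. Of the 43 members called, 23 (10 higher and 13 lower) were called under every alternative, and 27 (12 higher and 15 lower) under every alternative but the test against a 1.5-fold change. No called member changed direction under any alternative. Members that rose numbered 23, and 15 in the test against 1.5-fold, 15 with libraries 1 and 2 of day 1 left out, and 16 to 27 when each library was left out. With library weights more members rose: 6 spp, 5 nlp, 5 irg, 4 lys and 2 fip genes, in place of 3, 4, 4, 3 and 1. Members that fell numbered 17 to 22 when each library was left out. Over all genes, 2839 in place of 4487 fell in the test against 1.5-fold. Regulators that rose, 10 in the main fit, numbered 5 with quantile normalisation, 6 with scaling outside the top 1%, 3 in the 1.5-fold test, 18 with libraries 1 and 2 of day 1 left out, and 7 to 13 with each library left out. Regulators that fell, also 10, numbered 17, 17 and 3 in the first 3 of these, 18 with library weights, 16 with libraries 3 and 4 of day 1 left out, and 8 to 12 with each library left out. The members' median was 0.29 with the latter left out and -0.29 to 0.05 with each library left out. The causes of these moves were not tested. Signs turned for 16 uncalled members, in 48 values. Of those given in full, fip-5, irg-7 and spp-5 turned: fip-5 was at -0.10 with quantile normalisation and -0.24 when day 1 lacked libraries 1 and 2, irg-7 at 0.56 in that case and at -0.66 to 0.0044 with each library left out, and spp-5 at 0.080 when day 1 lacked libraries 3 and 4. Among the others were lys-8 at -0.06 with scaling outside the top 1%, nlp-31 at -0.32 with quantile normalisation, nlp-29 at -0.08 when day 1 lacked libraries 1 and 2, and lys-10 at -0.91 by edgeR with TMM scaling. Scaling outside the top 1% moved the median of all genes from -0.06 to -0.29 and that of the members from -0.17 to -0.42, edgeR with TMM scaling to -0.23 and -0.34. With the replicate block, which pairs libraries by batch, abf-5 and nlp-28 lost their calls (adjusted p = 0.0599 and 0.0583), spp-15 gained one (0.0206), and no other member's call changed. Of the 566 exonic bases of spp-15, 243 are shared with another gene, so its reads are uncertain. In the other lists the block changed the DBL-1 list from 0 rises and 5 falls to 1 and 4, the intracellular pathogen response from 2 rises to 3, the other effectors from 2 falls to 3 and the pharyngeal gland markers from 1 rise to 0. Depth limits spp-30, abf-1 and cnc-7, which had 1 or 2 reads in a group.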
